A study of Homo sapiens with 12 samples.

Results

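The D1240A line is a human myeloma cell line made to express the histone methyltransferase NSD2 with the substitution D1240A, and it is set here against TKO, the same cells with no vector. The comparison was taken from the labels: 3 D1240A libraries against 3 TKO libraries, of 12 libraries in all. A further 3 libraries from cells given wild-type NSD2 (WT) show, for each gene, where the level lay when an unaltered NSD2 was supplied. The last 3 libraries, from cells given NSD2 with the substitution F1295A, entered the fit only. The TKO cell line derives from KMS-11 and its genotype is given as WHSC1(+/-), WHSC1 being an older name of NSD2, and D1240A, WT and TKO cells all carry that genotype. D1240A cells had an expression vector for NSD2 p.D1240A, WT cells an expression vector for NSD2, and TKO cells none. Cells with a vector but no NSD2 insert are not among the libraries analysed here. A difference from TKO therefore cannot be told apart from one between cells with and without a vector. The labels call the replicates biological but do not say whether they came from separate cultures or clones, so p-values measure the spread between these libraries, which may be technical.

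NSD2 places methyl groups on lysine 36 of histone H3, a mark of active chromatin that opposes the silencing mark placed on lysine 27 by the Polycomb complex PRC2. In KMS-11 the translocation t(4;14) puts NSD2 under control of the immunoglobulin heavy chain locus and raises it. Residue D1240 follows the catalytic SET domain, towards the C-terminus. The title of the study places its question there, in the control of adhesion genes by the C-terminal region of NSD2.

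NSD2 (ENSG00000109685, GRCh38 chromosome 4, 1871424 to 1982207, plus strand) was high in D1240A cells. It measured 242, 259 and 250.3 FPKM in the D1240A libraries, 189, 188 and 195 FPKM in WT and 58.9, 58.6 and 62.7 FPKM in TKO. FPKM are fragments scaled by gene length and library total, here rescaled between libraries. All 3 D1240A libraries lay above all 3 WT libraries, which lay above all 3 TKO libraries. The log2 change was 2.05 ± 0.039 (SE) over TKO (limma adjusted p = 1.15e-11) and 0.39 ± 0.039 over WT (adjusted p = 5.29e-05). NSD2 RNA in D1240A cells was thus past the WT level. Whether genes placed past or short of WT follow this difference in NSD2 RNA was not tested, reads of the inserted and the endogenous gene were counted together, and protein was not measured.

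Between 11849 and 12213 genes per library reached 1 FPKM. The depth is unknown, no read totals being given with the values. D1240A replicate 2 stood apart: ribosomal RNA made up 51.4% of its deposited FPKM, against 0.133% to 0.995% in the other 11 libraries. Long intergenic RNA, which was kept, made up 10.4% of it, against 0.517% to 0.649%. Structural RNA classes were therefore left out and libraries rescaled, and the count of calls is given without this library. Of 9 plasma cell markers, the labelled type, 7 reached a mean of 1 FPKM in D1240A, 6 in WT and 7 in TKO, and their summed level was 3822 to 4146 FPKM in D1240A, 4680 to 4913 in WT and 2336 to 2549 in TKO. JCHAIN made up most of each sum, averaging 3146 FPKM in D1240A, 3788 in WT and 1730 in TKO. The surface markers differed in level. SDC1 (CD138) was low, averaging 0.278 FPKM in D1240A, 0.235 in WT and 4.01 in TKO. CD38 was low too, averaging 0.545 FPKM in D1240A, 0.349 in WT and 0.850 in TKO. SLAMF7 averaged 1.80 FPKM in D1240A, 0.701 in WT and 0.486 in TKO. The surface receptor TNFRSF17 (BCMA) was well expressed, averaging 112 FPKM in D1240A, 162 in WT and 102 in TKO. Summed T cell, myeloid and epithelial markers reached at most 3.64, 0.374 and 3.55 FPKM in any of these libraries. Erythroid markers summed to 4.92 to 6.52 FPKM in D1240A, 5.29 to 5.66 in WT and 6.11 to 8.35 in TKO, mostly from EPOR. Fibroblast markers summed to 2.77 to 4.02 FPKM in D1240A, above 1.42 to 1.93 in WT and 1.40 to 1.77 in TKO, and their part in any result was not tested. Nearly all of the fibroblast sum in D1240A came from COL1A1 and PDGFRB, at means of 1.31 and 1.94 FPKM. In bulk RNA, fewer cells expressing a gene and less RNA per cell cannot be told apart.

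D1240A cells differed from TKO at a large share of their genes. The largest rises were mostly of genes that TKO hardly expressed, and the largest falls of genes that D1240A hardly expressed. Of 14391 genes tested, 6404 (44.5%) were called at a limma adjusted p under 0.05, 3357 higher (23.3%) and 3047 lower (21.2%). The 3 D1240A and 3 TKO libraries did not overlap for 52.5% of the tested genes, and the D1240A and WT libraries for 35.5%. Of the called genes, 401 were at least 2-fold higher and 252 at least 2-fold lower, fold changes being taken after adding 0.5 FPKM, which understates the change of low genes. Without D1240A replicate 2 the counts were 3140 higher and 2900 lower. The balance depends on the rescaling. On the values as deposited the median gene fell by 0.12 on the log2 scale, and 1589 genes were called higher and 3807 lower, so that small differences are to be read relative to that shift.

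LRMP, a lymphoid protein of the endoplasmic reticulum membrane (chromosome 12, 25004342 to 25108334, plus strand), was highest among the genes picked for the largest rise. It measured 30.7, 31.9 and 32.9 FPKM in D1240A, 21.3, 20.5 and 20.9 in WT and 0, 0.0575 and 0.0289 in TKO. It was all but absent in TKO, and D1240A lay above WT with no overlap (log2 change over TKO 5.93 ± 0.056, adjusted p = 1.75e-14, and over WT 0.59 ± 0.056, adjusted p = 3.79e-05). The intestinal cadherin CDH17 (chromosome 8, 94127171 to 94217303, minus strand) measured 108, 104 and 110.4 FPKM in D1240A, 79.2, 82.0 and 80.1 in WT and 6.71, 6.85 and 6.46 in TKO. Its order was again D1240A, WT, TKO with no overlap (log2 change over TKO 3.91 ± 0.035, adjusted p = 1.75e-14, and over WT 0.41 ± 0.035, adjusted p = 1.67e-05).

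The other 8 genes of the 10 picked for the largest rise were not called between D1240A and WT, with intervals within 1.5-fold. POPDC3, a membrane protein of the Popeye family (chromosome 6, 105158280 to 105179995, minus strand), measured 25.3, 27.9 and 27.2 FPKM in D1240A, 26.3, 26.3 and 26.6 in WT and 0.277, 0.192 and 0.202 in TKO. The D1240A and WT values interleaved (log2 change over TKO 5.24 ± 0.054, and over WT 0.02 ± 0.054, adjusted p = 0.846). The neuronal sodium channel SCN3A measured 11.4, 11.98 and 11.3 FPKM in D1240A, 12.3, 13.1 and 13.2 in WT and 0.0861, 0.0767 and 0.0674 in TKO. Its D1240A libraries all lay below its WT libraries by a small amount, and those of PLOD2 did too (-0.27 over WT, adjusted p = 0.0548), while those of MAGEA3 lay above. The erythroid glycophorin GYPC (4.22), the cancer-testis antigen MAGEA3 (4.17), the embryonic globin HBE1 (4.09), the collagen lysyl hydroxylase PLOD2 (3.96), the actin adaptor BAIAP2 (3.86) and butyrylcholinesterase BCHE (3.77) made up the 10, each with its log2 rise over TKO in brackets. MAGEA3 and HBE1 were listed at 0 in every TKO library, MAGEA3 shares reads with MAGEA6, and HBE1 lies among other globin genes.

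Genes picked for the largest fall were placed variously against WT. The cytidine deaminase APOBEC3G, which has close paralogs, measured 0.149, 0.209 and 0.169 FPKM in D1240A, 0.0684, 0.0592 and 0.224 in WT and 10.1, 10.2 and 9.69 in TKO. ADTRP, which regulates coagulation, measured 1.21, 0.935 and 1.26 FPKM in D1240A, 0.703, 0.898 and 0.915 in WT and 22.2, 22.0 and 21.7 in TKO. Their log2 changes over TKO were -3.96 and -3.78 (adjusted p = 6.74e-10 and 2.28e-10), and neither was called between D1240A and WT with all libraries. ADTRP did not overlap WT, and without D1240A replicate 2 it was called above WT (0.38, adjusted p = 0.0318). The tetraspanin CD9, a cell surface organizer, measured 3.06, 3.84 and 3.73 FPKM in D1240A, 6.17, 5.09 and 6.23 in WT and 25.7, 26.4 and 26.99 in TKO. Here D1240A lay below WT in every library (log2 change over WT -0.65 ± 0.12, adjusted p = 2.78e-03). The rest were LUZP6, delta globin HBD (-3.54), the urotensin receptor UTS2R (-2.82), the kinase SIK1 (-2.42), S100A4 (-2.40), TRAF3IP3 (-2.30) and LRRC26 (-2.17). LUZP6 was listed at 0 in every D1240A and WT library and lies within another gene, and SIK1 shares reads with its near-identical copy SIK1B.

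To place each gene against the WT level, the same limma fit was used for all 3 contrasts: WT against TKO called 7157 genes (49.7%, 25.9% higher and 23.9% lower) and D1240A against WT 2756 (19.2%), 1183 higher (8.22%) and 1573 lower (10.9%). Among the 7157 genes, D1240A was taken as short of WT when it was called against WT on the TKO side, past WT when called on the far side, and at WT when it was not called and the 95% interval of the difference lay within 1.5-fold either way. Genes not called with a wider interval were left unplaced, and a gene at WT need not be called against TKO. D1240A was at the WT level for 4513 genes (63.1%, 2247 of them higher in WT than in TKO and 2266 lower). It was short of WT but moved from TKO for 952 genes (13.3%, 622 and 330), and short of WT and not called from TKO for 819 (11.4%, 415 and 404). It was past WT for 285 genes (3.98%, 127 and 158), on the opposite side of TKO for 55 (0.768%, 29 and 26), and unplaced for 533 (7.45%). A further 465 genes, not called between WT and TKO, stood apart from both in D1240A, 201 higher and 264 lower. The 3 contrasts share libraries, and the WT libraries both choose the genes and set the level, so the balance between short and past is a description and not a test.

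**Figure D1:**
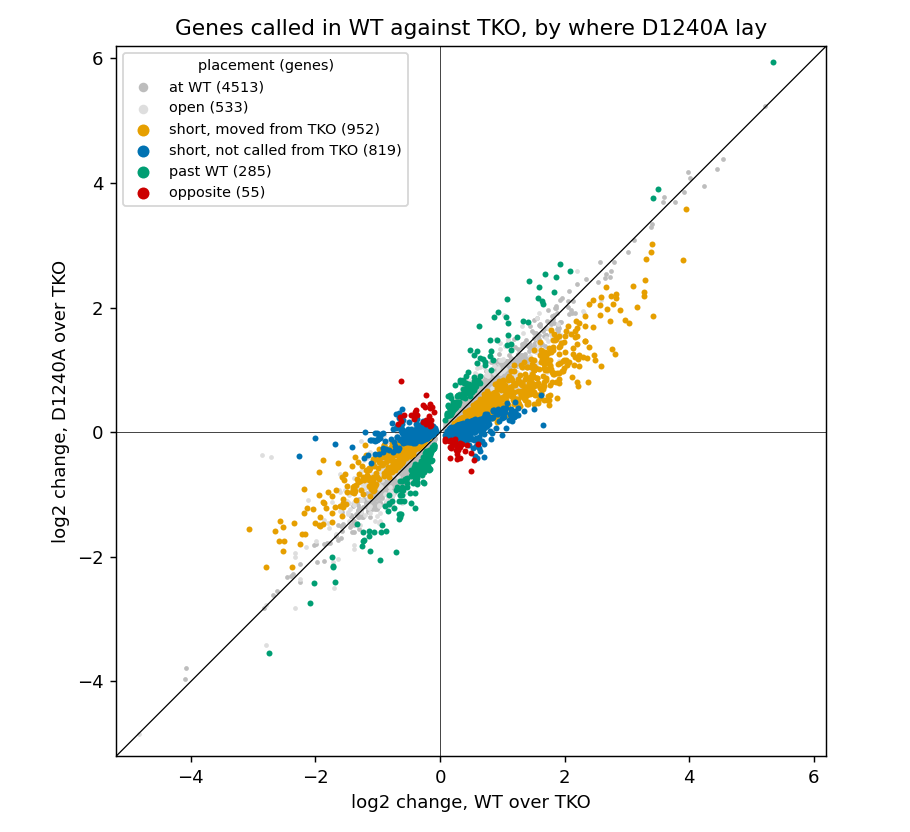
Each point is a gene called in WT against TKO, with its log2 change of WT over TKO on the x axis and of D1240A over TKO on the y axis, coloured by placement, and the diagonal marks equal levels in D1240A and WT. The axes share the TKO libraries, so the spread along the diagonal is no result. The 952 genes short of WT lie between the diagonal and the horizontal zero line, the 285 past WT lie beyond the diagonal, and the 55 opposite genes lie in the other quadrants.

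The placements rested on the libraries to different degrees. Without D1240A replicate 2, 4230 of the 4513 genes at WT kept that placement, as did 682 of 952, 569 of 819, 196 of 285, 49 of 55 and 276 of the 465 apart from both. Leaving out WT replicate 1 gave 460 genes short and not called from TKO, 158 past WT and 308 apart from both, and leaving out WT replicate 2 or 3 gave 177 or 179 past WT. On the values as deposited 458, 474, 17 and 136 genes were short and moved, short and not called from TKO, opposite and past WT.

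**Figure D2:**
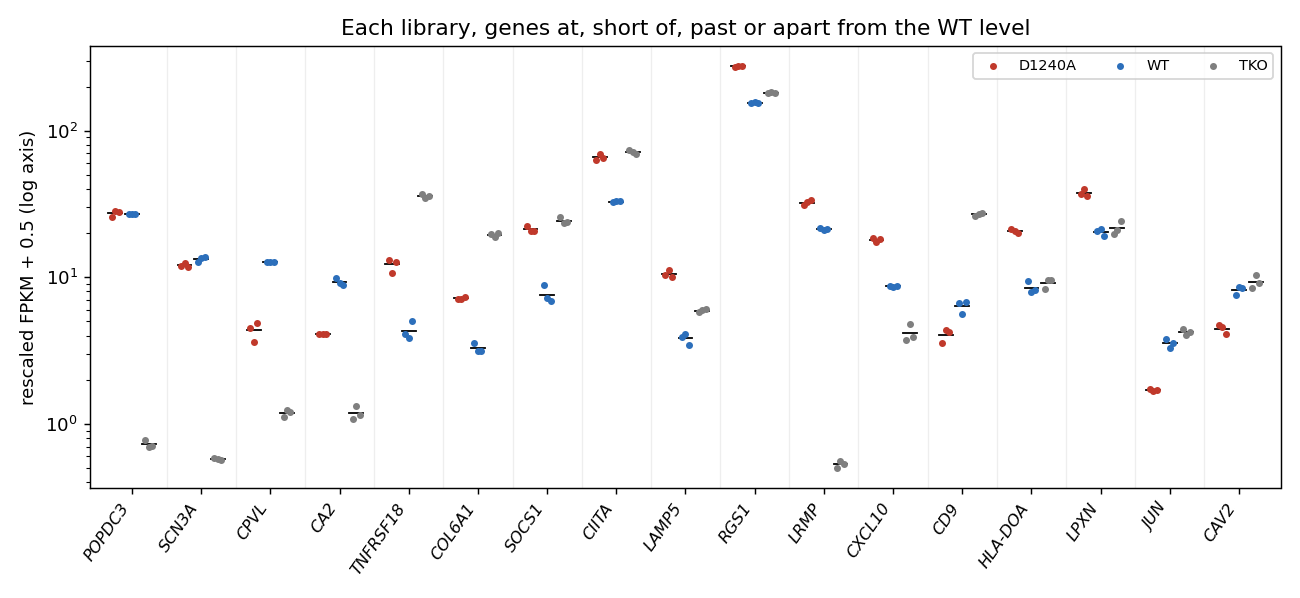
Dots are single libraries (rescaled FPKM plus 0.5, log axis), with D1240A left, WT in the middle and TKO right for each gene, and bars are group means of 3 libraries. POPDC3 and SCN3A lay at WT, CPVL, CA2, TNFRSF18 and COL6A1 between WT and TKO, SOCS1 and CIITA closer to TKO than to WT, LAMP5 and RGS1 on the far side of TKO, LRMP, CXCL10 and CD9 past WT, and HLA-DOA, LPXN, JUN and CAV2 apart from both.

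Sterol and fatty acid synthesis genes rose with D1240A: of 35 tested, 27 were called higher and 2 lower than TKO (27 and 1 without D1240A replicate 2), against 23.3% and 21.2% of all tested genes, with a median log2 change of 0.49 (0.01 for all tested genes). Of the 28 called between WT and TKO, 21 lay at WT, 5 were short of it and 1 was past it, and 63.1% of all such genes lay at WT. The sterol demethylase CYP51A1 measured 49.9, 49.3 and 51.1 FPKM in D1240A and 30.3, 30.02 and 29.3 in TKO, and MSMO1, of the same pathway, 59.3, 62.8 and 58.5 FPKM in D1240A and 26.3, 27.8 and 24.9 in TKO. All D1240A libraries lay above all TKO libraries for both, and neither was called against WT. The desaturase SCD rose by 1.48 over TKO (log2) and was short of WT by 0.36, and the sterol sensor INSIG1 rose by 1.08.

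DNA replication and mitosis genes fell in D1240A: of 50 tested, 4 were higher and 27 lower than TKO (median -0.13), against 23.3% and 21.2% of all tested genes. Of the 37 called between WT and TKO, 27 lay at WT, against the same 63.1%. Thymidylate synthase TYMS measured 214, 209.6 and 210.5 FPKM in D1240A and 284, 293 and 289 in TKO, with no overlap (log2 change -0.45, adjusted p = 1.04e-07). The helicase subunit MCM7 fell by 0.57 and the topoisomerase TOP2A by 0.37, TOP2A being short of WT. POLA1 on the X chromosome fell by 0.89, but by 0.05 and not called once the median change of its 50 neighbouring genes was subtracted. MCM7 lies on chromosome 7, where the later stretches of neighbouring genes had medians of -0.40 to -0.17. Its change with a neighbourhood median removed is not given here. Of the chemokine and cytokine receptors, 13 of 22 tested fell and 4 rose (median -0.43), against 21.2% and 23.3% of all tested genes. The interferon gamma receptor subunit IFNGR2 on chromosome 21 fell by 1.35, or by 0.98 with the median of its neighbourhood removed, and the chemokine receptor CCR10 fell by 1.90 and was short of WT by 0.61.

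Genes with a partial rise in D1240A included CPVL, a carboxypeptidase (chromosome 7, 28995231 to 29195451, minus strand). It measured 4.01, 3.14 and 4.36 FPKM in D1240A, 12.2, 12.3 and 12.2 in WT and 0.612, 0.738 and 0.712 in TKO. The 3 groups were well apart, with D1240A between the others (log2 change over TKO 1.86 ± 0.10, adjusted p = 5.95e-08, and over WT -1.56 ± 0.10, adjusted p = 2.83e-06). Carbonic anhydrase CA2 measured 3.57, 3.61 and 3.60 FPKM in D1240A, 9.37, 8.59 and 8.30 in WT and 0.574, 0.815 and 0.655 in TKO, again with D1240A between. The same order held for the thymosin TMSB15A, the inhibin subunit INHBE, the actin-linked RAI14 and the small GTPase RRAS2, whose log2 changes over TKO were 0.81, 1.26, 1.34 and 1.76 and over WT -1.56, -1.55, -1.43 and -1.28.

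Genes with a partial fall included TNFRSF18 (GITR), a TNF receptor family member. It measured 12.7, 10.3 and 12.2 FPKM in D1240A, 3.57, 3.37 and 4.52 in WT and 36.2, 34.4 and 35.5 in TKO. D1240A lay between the others in every library (log2 change over TKO -1.56 ± 0.10, adjusted p = 2.73e-07, and over WT 1.505 ± 0.10, adjusted p = 3.86e-06). The collagen COL6A1 on chromosome 21 measured 6.62, 6.66 and 6.83 FPKM in D1240A, 3.06, 2.63 and 2.63 in WT and 19.1, 18.2 and 19.5 in TKO. L1CAM, a neural adhesion molecule on the X chromosome, the tetraspanin CD82 and the cytokine receptor subunit CSF2RB lay between the groups too, with log2 changes over WT of 1.27, 0.94 and 1.05 and over TKO of -0.91, -1.01 and -1.59. With the median of its neighbourhood removed the change of L1CAM over TKO was -0.44, and that of COL6A1 was -1.11 where it had been -1.43.

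Stress and secretory genes often lay short of WT in D1240A. Of 50 tested genes of the unfolded protein and amino acid response, 34 rose and 3 fell over TKO (median 0.33), while 1 was higher and 28 lower than WT (0 and 28 without D1240A replicate 2) (median -0.18), against 8.22% and 10.9% of all tested genes. The glutathione-degrading enzyme CHAC1 measured 12.5, 12.997 and 12.05 FPKM in D1240A, with means of 19.3 ± 0.432 in WT and 2.30 ± 0.166 in TKO (SD, n = 3), so it moved most of the way (log2 change over TKO 2.22, and over WT -0.61, adjusted p = 2.77e-05). The serine synthesis enzyme PHGDH (2.13 over TKO, -0.32 over WT) and asparagine synthetase ASNS (0.98 and -0.16) did likewise, and the cysteine pathway enzyme CBS (1.21) lay at WT.

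Of 42 tested hypoxia and glycolysis genes, 26 rose and 4 fell over TKO (median 0.29), and 1 was higher and 25 lower than WT (8.22% and 10.9% of all tested genes) (median -0.24). DDIT4, an inhibitor of mTOR, measured 66.8, 65.0 and 70.3 FPKM in D1240A, with means of 122 ± 0.537 in WT and 37.3 ± 1.52 in TKO (SD, n = 3). Its level was between the others in each library (log2 change over TKO 0.84, and over WT -0.85, adjusted p = 4.18e-07). The aldolase ALDOC (1.48 and -0.34) and the fructose bisphosphate regulator PFKFB4 (1.38 and -0.54) were placed the same way.

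Of 23 tested plasma cell genes, 13 rose and 6 fell over TKO, and 2 were higher and 15 lower than WT. Of all tested genes, 23.3% rose and 21.2% fell over TKO, and 8.22% were higher and 10.9% lower than WT. The share of plasma cell genes that fell was thus near that of all genes, and the lists that follow are read against the same shares. The antibody joining chain JCHAIN measured 3300.3, 2992 and 3145 FPKM in D1240A, with means of 3788 ± 115 in WT and 1730.4 ± 109 in TKO. XBP1, the transcription factor of the secretory program, measured 355, 346 and 352 FPKM in D1240A, with means of 429 ± 4.15 and 257 ± 4.25. Both lay between the groups, as did HERPUD1, while SDC1 fell by 2.55 and lay at WT. Of 20 genes tied earlier to t(4;14) or NSD2, 13 rose and 3 fell over TKO, and 1 was higher and 11 lower than WT. CA2, the cytoskeletal protein TES (0.83 over TKO, -0.33 over WT) and others of this list were short of WT, while the desmosomal cadherin DSG2 (0.62) and the cystine transporter SLC7A11 (1.56) lay at WT. In the cytosolic ribosomal proteins, whose reads are shared with pseudogenes, 64 of 79 rose and 4 fell over TKO, and 0 were higher and 35 lower than WT. Without D1240A replicate 2, 19 were lower than WT and 1 was higher.

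MHC class II genes, which present peptides to helper T cells, were higher in D1240A than in WT, and differed less and in both directions from TKO. CIITA is the master activator of these genes and joins the factors bound at their promoters. Promoter stretches are shown for 4 of them. HLA-DQB1, HLA-DRB1 and HLA-DMA lay above WT in D1240A, as did most other class II genes, and HLA-DOA lay above both WT and TKO. The sequences are the 250 bases before the start, from RefSeq on GRCh38.p14, read along the gene's own strand, with capitals marking TGATTGG, the Y-box core, which holds an inverted CCAAT, as found by a search.
HLA-DQB1 (chr6:32666658-32666907, minus strand): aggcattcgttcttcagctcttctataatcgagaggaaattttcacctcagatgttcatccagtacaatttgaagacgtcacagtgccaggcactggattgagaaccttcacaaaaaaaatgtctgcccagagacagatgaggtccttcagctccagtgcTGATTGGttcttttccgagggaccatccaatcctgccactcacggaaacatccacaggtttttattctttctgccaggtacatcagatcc
HLA-DRB1 (chr6:32589849-32590098, minus strand): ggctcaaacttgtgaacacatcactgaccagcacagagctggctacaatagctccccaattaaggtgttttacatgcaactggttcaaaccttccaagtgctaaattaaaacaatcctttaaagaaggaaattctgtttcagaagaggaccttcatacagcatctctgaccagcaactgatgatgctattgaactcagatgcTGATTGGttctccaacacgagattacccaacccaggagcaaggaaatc
HLA-DMA (chr6:32953098-32953347, minus strand): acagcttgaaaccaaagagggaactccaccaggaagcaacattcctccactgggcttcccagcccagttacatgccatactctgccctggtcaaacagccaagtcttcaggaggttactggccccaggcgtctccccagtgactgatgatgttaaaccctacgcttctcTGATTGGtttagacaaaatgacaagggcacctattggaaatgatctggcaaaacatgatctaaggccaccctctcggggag
HLA-DOA (chr6:33009592-33009841, minus strand): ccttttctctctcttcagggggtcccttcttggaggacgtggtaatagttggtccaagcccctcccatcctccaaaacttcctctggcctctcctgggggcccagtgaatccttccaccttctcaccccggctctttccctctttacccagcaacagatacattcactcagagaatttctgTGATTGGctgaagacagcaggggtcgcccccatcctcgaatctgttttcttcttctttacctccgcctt
The letters TGATTGG, searched on both strands, were present in the 250 bases before the start in 8 of the 13 genes with an entry, of 14 class II genes (CD74 counted in), and in 6.62% of 35116 such stretches in all. All 4 stretches shown hold the letters, and so do those of HLA-DRB5, HLA-DQA2 and HLA-DQB2. HLA-DQA1, HLA-DPA1, HLA-DPB1, HLA-DMB and CD74 had no match, though they too lay above WT. HLA-DOB, not called against WT, had 1. A match is a description of the sequence only, and a link to the level in D1240A was not tested.

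CIITA (ENSG00000179583, chromosome 16, 10866222 to 10943021, plus strand) measured 62.6, 68.5 and 64.3 FPKM in D1240A, 31.9, 32.5 and 32.5 in WT and 73.1, 71.0 and 68.7 in TKO. The D1240A libraries lay far above WT and just under TKO. The log2 change was 1.00 ± 0.048 over WT (adjusted p = 4.11e-07) and -0.12 ± 0.048 over TKO, which was not called (adjusted p = 0.0538). Without D1240A replicate 2 it was called lower than TKO (-0.16, adjusted p = 0.0230), as it was, at -0.12, without F1295A replicate 2 or 3, so its placement at the TKO level rests on a call near the threshold. CIITA and the genes of its group were singled out after their values were seen. Of the 14 class II genes, counting the invariant chain CD74, 13 were higher in D1240A than in WT, with log2 differences of 0.61 to 1.28, where 8.22% of all tested genes were higher. Against TKO 3 were higher, 3 lower and 8 not called, a share of calls near the 44.5% of all tested genes. Some of these calls lay near the threshold. HLA-DPB1 (0.17, limma adjusted p = 0.0428) was no longer called higher without D1240A replicate 1, TKO replicate 1 or 2, WT replicate 3 or any F1295A replicate. HLA-DRB5 was newly called lower (-0.22) without D1240A replicate 1, and HLA-DMB (-0.14) without TKO replicate 1. HLA-DRA measured 1836, 1697 and 1745 FPKM in D1240A, 1102, 1133 and 1089 in WT and 1634, 1749 and 1783 in TKO. D1240A and TKO interleaved and WT lay below both (log2 change over WT 0.67 ± 0.039, adjusted p = 1.38e-06, and over TKO 0.03, adjusted p = 0.551).

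HLA-DQB1 measured 57.6, 59.5 and 70.3 FPKM in D1240A, 33.4, 30.7 and 28.99 in WT and 68.4, 72.5 and 74.8 in TKO. D1240A overlapped TKO (log2 change -0.21 ± 0.078, adjusted p = 0.0495, against 0.99 ± 0.078 over WT). The call from TKO rests on single libraries: it was lost, at -0.24 to -0.15, without D1240A replicate 1 or 2, any TKO replicate, WT replicate 2 or F1295A replicate 1 or 2. HLA-DRB1 measured 305, 279 and 289 FPKM in D1240A, 149.97, 164 and 151 in WT and 286, 293 and 296 in TKO, and was not called against TKO. HLA-DMA, which loads peptides, measured 90.5, 82.4 and 83.3 FPKM in D1240A, 49.3, 55.4 and 53.4 in WT and 98.2, 98.6 and 98.5 in TKO. It fell slightly from TKO (log2 change -0.21, adjusted p = 3.15e-03) and lay above WT by 0.69. CD74 was placed the same way, with means of 4013 ± 68.3 FPKM in D1240A, 2626 ± 49.2 in WT and 4811 ± 115 in TKO (SD, n = 3).

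HLA-DPA1 and HLA-DOA went further. HLA-DPA1 measured 324, 329 and 306 FPKM in D1240A, 189, 198 and 183 in WT and 257, 260.3 and 274 in TKO. It rose over TKO while WT fell (log2 change 0.28 ± 0.038, adjusted p = 9.59e-05). HLA-DOA, which restrains peptide loading, measured 20.8, 20.1 and 19.5 FPKM in D1240A, 8.87, 7.46 and 7.64 in WT and 7.85, 9.09 and 9.10 in TKO. WT and TKO interleaved and every D1240A library lay far above both (log2 change over TKO 1.17 ± 0.076, adjusted p = 2.23e-07, and over WT 1.28 ± 0.076, adjusted p = 1.38e-06). HLA-DOB was near 0.6 FPKM in all groups and was not called. HLA genes are close in sequence and vary between people, so reads may be shared among them or missed.

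**Figure D3:**
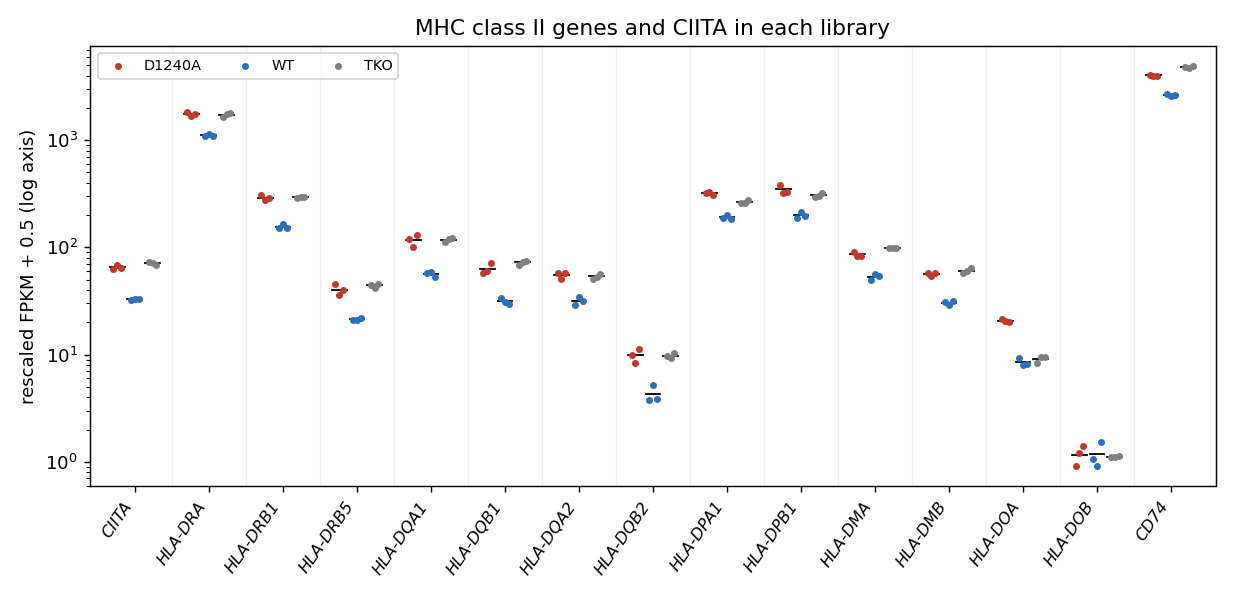
Dots are single libraries (rescaled FPKM plus 0.5, log axis), with D1240A left, WT in the middle and TKO right for each gene, and bars are means of 3 libraries. WT sits below D1240A for 13 of the 14 class II genes, CD74 counted in, 8 of them are not called between D1240A and TKO, and HLA-DOA is higher in D1240A than in both.

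Over the whole antigen presentation list, 33 tested genes that include class I, 7 rose and 9 fell in D1240A over TKO (9 and 7 without D1240A replicate 2, and 23.3% and 21.2% of all tested genes), and 20 were higher and 1 lower than WT (20 and 0 without that library), against 8.22% and 10.9% of all tested genes. The median over WT was 0.36, and 0.01 for all tested genes. In WT 3 of the 33 were higher and 22 lower than TKO. The protease CTSS, which trims the invariant chain, was past WT, at 189, 167 and 181 FPKM in D1240A, 133, 141 and 136 in WT and 101, 105 and 103 in TKO. Of the other class II regulators, RFX5 fell by 0.25 from TKO and was above WT by 0.26, RFXANK lay at WT, and RFXAP was not called in any of the 3 contrasts. The class I gene HLA-B was above WT by 0.39, and B2M was called in none of the 3 contrasts. HLA-E was 0.14 above TKO, a direction that turned on the values as deposited (-0.01).

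SOCS1, a brake on cytokine signalling that lies near CIITA on chromosome 16 (11254405 to 11256200, minus strand), had a large difference from WT among genes not called from TKO. It measured 21.9, 20.3 and 20.3 FPKM in D1240A, 8.28, 6.69 and 6.36 in WT and 25.2, 23.04 and 23.2 in TKO. D1240A was near TKO and far above WT (log2 change over WT 1.49 ± 0.086, adjusted p = 1.25e-06, and over TKO -0.19, adjusted p = 0.0945). Without WT replicate 1 its change from TKO, still -0.19, was called. DEXI, inside the span of CIITA on the other strand, was at 9.70, 8.0001 and 9.44 FPKM in D1240A, 15.5, 14.7 and 13.996 in WT and 9.44, 8.65 and 9.06 in TKO. D1240A overlapped TKO while WT lay higher (log2 change over WT -0.68, adjusted p = 9.72e-05). CLEC16A was called in none of the 3 contrasts with all libraries, and was called over TKO (0.15) without D1240A replicate 1. RMI2, whose span holds SOCS1, fell by 0.18 from TKO and lay above WT by 0.12, the same order as SOCS1 at a smaller size. Its difference from WT was not called without D1240A replicate 3 or WT replicate 2 or 3, and was -0.0011 on the values as deposited. Whether strand was used in counting is not stated, so reads of overlapping genes cannot be told apart.

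Other genes short of WT and not called from TKO, also chosen after their values were seen, included CCDC141, lower in WT (log2 change over WT 0.99 and over TKO -0.02), and PRELID2, higher in WT (-0.98 and 0.07). The lymphocyte adhesion molecule ICAM1 measured 30.3, 30.3 and 29.7 FPKM in D1240A, 22.0, 22.8 and 21.7 in WT and 31.4, 29.1 and 30.8 in TKO. D1240A overlapped TKO and lay above WT (log2 change 0.43, adjusted p = 2.33e-05).

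Few genes moved from TKO in the opposite sense to WT. LAMP5, a lysosomal membrane protein of dendritic cells and neurons, measured 9.80, 10.7 and 9.498 FPKM in D1240A, 3.42, 3.61 and 2.96 in WT and 5.26, 5.44 and 5.57 in TKO. D1240A was highest and WT lowest with no overlap (log2 change over TKO 0.83 ± 0.082, adjusted p = 7.31e-06, and over WT 1.46 ± 0.082, adjusted p = 1.04e-06). RGS1, which dampens chemokine receptor signalling, measured 273, 276 and 275 FPKM in D1240A, 155, 157 and 153 in WT and 179, 184 and 179.7 in TKO, the same order. The actin-binding SYNPO (0.25 over TKO) and the steroid sulfatase STS (0.27) also rose. STS lies near the start of the X chromosome. The first window of neighbouring genes there had medians of -0.82 for D1240A over TKO and -0.89 for WT over TKO. The change of STS in WT (-0.58) was smaller than that median, so its placement opposite to WT depends on leaving regional shifts in. Of those that fell in D1240A and rose in WT, the ubiquitin ligase RNF157 (-0.19), the cochlear protein COCH (-0.35), TCEAL1 (-0.42) and CHPT1 (-0.28) were among those with the largest differences from WT. TCEAL1 also lies on the X chromosome, in a part where windows had D1240A over TKO medians of -0.56 to -0.28. LCP1 on chromosome 13 (0.13 over TKO) and TSPAN7 on the X chromosome (-0.62) turned to -0.38 and 0.22 when the medians of their neighbourhoods were removed, and LCP1 to -0.02 on the values as deposited.

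Among the 465 genes that stood apart from both, leupaxin LPXN, a focal adhesion adaptor of blood cells, measured 36.7, 39.5 and 35.5 FPKM in D1240A, 20.1, 20.96 and 18.8 in WT and 19.1, 20.5 and 23.6 in TKO. D1240A lay above both other groups, which interleaved (log2 change over TKO 0.81 ± 0.072, adjusted p = 3.05e-06, and over WT 0.88 ± 0.072, adjusted p = 1.36e-05). The adhesion molecule ALCAM measured 3.90, 4.0001 and 4.10 FPKM in D1240A, 2.38, 2.29 and 2.38 in WT and 2.54, 2.13 and 2.27 in TKO, again above both. CALN1 (1.10 over TKO) and the claudin CLDN16 (0.87) were higher likewise.

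The transcription factor JUN was among those lower, at 1.23, 1.17 and 1.20 FPKM in D1240A, 3.26, 2.80 and 3.06 in WT and 3.93, 3.55 and 3.75 in TKO. All D1240A libraries lay below all others (log2 change over TKO -1.32 ± 0.12, adjusted p = 2.61e-06, and over WT -1.06 ± 0.12, adjusted p = 1.13e-04). The caveolin CAV2 measured 4.20, 4.05 and 3.60 FPKM in D1240A, 7.02, 8.11 and 7.91 in WT and 7.89, 9.90 and 8.64 in TKO, also lowest in D1240A. The katanin-like KATNAL2 (-1.13 over TKO) and the LIM protein FHL1 (-0.85) fell too. FHL1 lies late on the X chromosome. The last windows of neighbouring genes there had medians of -0.56 and -0.47 for D1240A over TKO and -0.52 and -0.47 for WT over TKO. CAV2 lies in a part of chromosome 7 with D1240A over TKO medians of -0.40 to -0.17. The placement of FHL1 and CAV2 apart from both was made with these regional shifts left in.

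Genes past the WT level included CXCL10, a chemokine that draws T cells (chromosome 4, 76021117 to 76023497, minus strand). It measured 18.1, 17.0 and 17.6 FPKM in D1240A, 8.21, 8.12 and 8.15 in WT and 3.23, 4.28 and 3.44 in TKO. The 3 groups were ordered D1240A, WT, TKO with no overlap (log2 change over TKO 2.13 ± 0.088, adjusted p = 5.77e-09, and over WT 1.06 ± 0.088, adjusted p = 1.51e-05). ENTPD1 (CD39), which degrades extracellular ATP, measured 9.01, 8.85 and 9.92 FPKM in D1240A, 4.18, 4.01 and 4.99 in WT and 1.40, 1.36 and 1.16 in TKO. The thioesterase OLAH, the nicotinic receptor subunit CHRNA6, DENND3 and HDGFL3 had the same order, with log2 changes over WT of 1.08, 1.00, 0.99 and 0.78.

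On the lower side DUSP5, a phosphatase of ERK kinases, measured 4.25, 4.25 and 4.33 FPKM in D1240A, 7.26, 7.02 and 7.04 in WT and 11.8, 11.1 and 11.2 in TKO. D1240A was lowest with no overlap (log2 change over TKO -1.31 ± 0.05, adjusted p = 2.89e-09, and over WT -0.67 ± 0.05, adjusted p = 6.77e-06). The lysosomal protease LGMN (-1.13 over TKO), PLD4 (-1.37), CDC42EP3 (-1.59) and the antisense RNA PCED1B-AS1 (-1.93) were past WT in the same direction. PCED1B-AS1 is uncertain without strand.

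Adhesion genes are named in the study's title. Their counts are to be read against the 23.3% of all tested genes that were higher and the 21.2% that were lower than TKO, and several lists lie near those shares. Cadherins mostly rose: of 15 tested, 9 were higher and 1 lower than TKO (median 0.99), 6 lay at WT, 4 were past it and 2 were short of it. The neural cadherin CDH2 measured 9.38, 9.46 and 9.93 FPKM in D1240A, with means of 10.05 ± 0.0343 in WT and 1.03 ± 0.220 in TKO (SD, n = 3). It was level with WT and far above TKO (log2 change 2.73 ± 0.085, adjusted p = 5.77e-10). The polarity cadherin CELSR1 and the protocadherin PCDH10 rose by 1.17 and 1.11 and, like CDH17, were past WT, by 0.32 and 0.51. Of 13 tested integrins, 5 rose and 3 fell, or 3 and 3 without D1240A replicate 2. ITGB7, the partner chain of gut-homing integrins, measured 614, 587 and 584 FPKM in D1240A, with means of 837 ± 8.93 in WT and 473 ± 13.6 in TKO. It rose part of the way (log2 change over TKO 0.33, and over WT -0.49, adjusted p = 1.58e-06), ITGAV rose by 0.64, and ITGAL and ITGB5 fell by 0.97 and 0.63.

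Of 32 tested immunoglobulin-like adhesion molecules, 7 rose and 13 fell over TKO. The lymphocyte ligand CD48 fell by 1.20 and the neural adhesion molecule CNTN1 rose by 2.34, both short of WT, while CD47, the signal that restrains phagocytes, fell by 0.53 and lay at WT. In the extracellular matrix list 14 of 31 rose and 8 fell, with the collagens COL19A1 (2.12) and COL9A2 (1.99) at WT. In focal adhesion and actin genes 19 of 59 rose and 18 fell, the junction protein JUP by 1.43 and tropomyosin TPM4 by 0.56. In axon guidance 15 of 37 rose and 5 fell, among them the ephrin receptor EPHB1 at 9.18, 9.76 and 9.29 FPKM in D1240A, with means of 8.31 ± 0.266 in WT and 0.998 ± 0.127 in TKO.

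**Figure D4:**
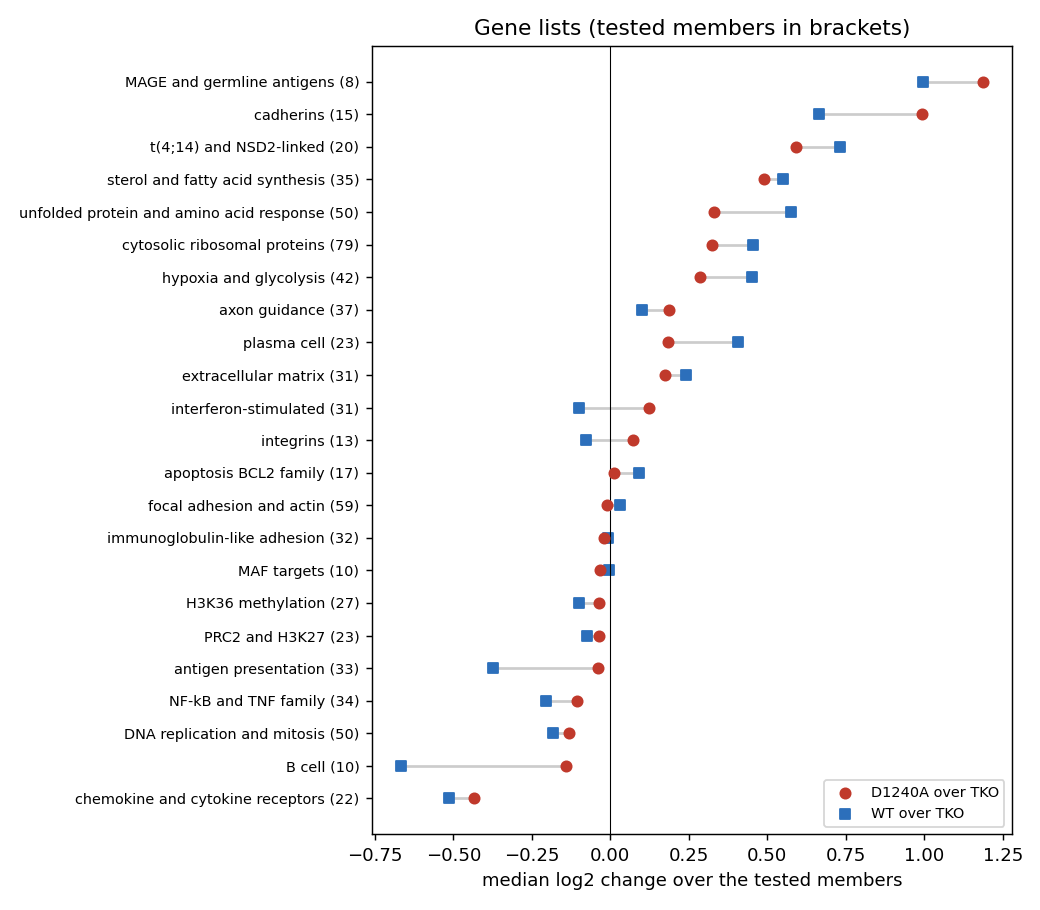
Circles give the median log2 change of D1240A over TKO and squares that of WT over TKO, over the tested members of each list (number in brackets), with the median of all tested genes near 0. Antigen presentation stands at -0.04 in D1240A and -0.37 in WT, and the unfolded protein and amino acid list at 0.33 and 0.58, and both contrasts share the TKO libraries. On the values as deposited the D1240A medians of integrins, interferon-stimulated and BCL2 family genes turn below 0. With neighbourhood medians removed those of integrins and BCL2 family genes turn below 0 as well, and that of immunoglobulin-like genes turns above 0.

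In the remaining lists 23.3% and 21.2% of all tested genes higher and lower than TKO again serve for comparison. Of 34 NF-kB and TNF family genes, 9 rose and 12 fell over TKO. Against WT 15 were higher and 2 lower, where 8.22% and 10.9% of all tested genes were. The subunit NFKB2 (0.53) rose and lay at WT, and TNFRSF1B (-0.98) and CD70 (-1.09) fell and lay at WT. Of 31 interferon-stimulated genes 8 rose and 9 fell, HERC5 (1.29) among the first and GBP4 (-1.81) among the second. Of 8 tested MAGE and germline antigens 5 rose and 0 fell (median 1.19), among them PRAME (1.33). Of 17 BCL2 family and related genes 4 rose, APAF1 (0.72) among them, and 5 fell, or 6 and 4 without D1240A replicate 2. Of 10 B cell genes 2 rose and 4 fell, with CD37 (1.96) and IRF8 (-1.79) at WT, and of 10 MAF targets 3 rose, DEPTOR (0.50), an mTOR inhibitor, among them, and 1 fell, or 3 and 2 without D1240A replicate 2.

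Of 27 tested H3K36 writers, erasers and readers, 4 rose and 6 fell over TKO (23.3% and 21.2% of all tested genes). Against WT 7 were higher and 4 lower (8.22% and 10.9% of all tested genes), or 4 and 2 without D1240A replicate 2. The writer NSD1 measured 14.05, 16.6 and 16.0 FPKM in D1240A, with means of 14.4 ± 0.546 in WT and 9.30 ± 0.289 in TKO, a rise of 0.71 that was 0.21 with the median of its neighbourhood removed. NSD3 (0.22), the demethylase KDM4A (0.22) and the DNA methyltransferase DNMT3A (0.38) rose, and DNMT3B (-0.93), the reader ZMYND11 (-0.30) and SMYD2 (-0.34) fell. PHF19, a PRC2 partner that reads H3K36 methylation, measured 47.3, 42.2 and 43.3 FPKM in D1240A, with means of 54.2 ± 1.85 in WT and 78.6 ± 3.74 in TKO. It fell past the WT level (log2 change over TKO -0.82 ± 0.049, adjusted p = 1.11e-07, and over WT -0.29, adjusted p = 1.96e-03). The readers PSIP1, MSH6 and MORF4L1 were not called against TKO.

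Of 23 tested PRC2 and H3K27 genes 3 rose over TKO, a smaller share than the 23.3% of all tested genes. In the same list 6 fell, near the 21.2% of all tested genes. The catalytic subunit EZH2 measured 72.2, 71.96 and 74.5 FPKM in D1240A, with means of 67.8 ± 0.808 in WT and 95.3 ± 1.77 in TKO, a fall of 0.39, or of 0.10 with its neighbourhood's median removed. The X-linked RBBP7 and KDM6A fell by 1.02 and 0.92, or by 0.20 and 0.09 in the same way, the second then not called.

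Stretches of several chromosomes differed between D1240A and TKO, and WT differed from TKO in the same places. The median log2 change of D1240A over TKO was 0.45 on chromosome 13, -0.31 on chromosome 21 and -0.43 on the X chromosome, where WT over TKO had 0.46, -0.35 and -0.43. Between D1240A and WT the medians of these chromosomes were 0.02, 0.05 and -0.02. Of 273 windows of 50 neighbouring genes, 17 had a median beyond 0.3 between D1240A and TKO, 18 between WT and TKO and 0 between D1240A and WT. Below that cut, D1240A and WT differed most in windows 2 and 3 of chromosome 6 (0.20 and 0.17) and window 17 of chromosome 1 (0.17). In those chromosome 6 windows WT over TKO stood at -0.30 and -0.23, and D1240A over TKO at 0.01 and 0.05. Of the 17, 10 lay on chromosomes 13, 21 and X, but not over their whole length. On the X chromosome windows 1 and 2 stood at -0.82 and -0.83 and windows 3 and 4 at 0.051 and 0.052. On chromosome 13 the first window stood at 0.067 and the last at 0.58. The other 7 windows were the last ones of chromosome 5 (0.51 and 0.50) and of chromosome 10 (0.36, 0.37 and 0.36), the tenth of chromosome 7 (-0.40) and the first of chromosome 8 (-0.43). Shifts reached further than the cut of 0.3 shows. Windows 9 to 15 of chromosome 7 all stood below 0, at -0.40 to -0.17, and WT over TKO was below 0 in each of them. Window 4 of chromosome 18 stood at -0.29, in WT too. With the median of its own window taken from every gene, 2858 genes were called higher and 2829 lower in D1240A over TKO. Chromosomes 13, 21 and X held 6.09% of the tested genes, 9.73% of the genes at WT, 4.03% of those short of WT and not called from TKO, and 4.52% of those apart from both. DNA copy number was not measured, and whether it differs between the lines was not tested. A level shared by D1240A and WT in these stretches therefore cannot be told apart from a feature that both vector-bearing lines share.

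**Figure D5:**
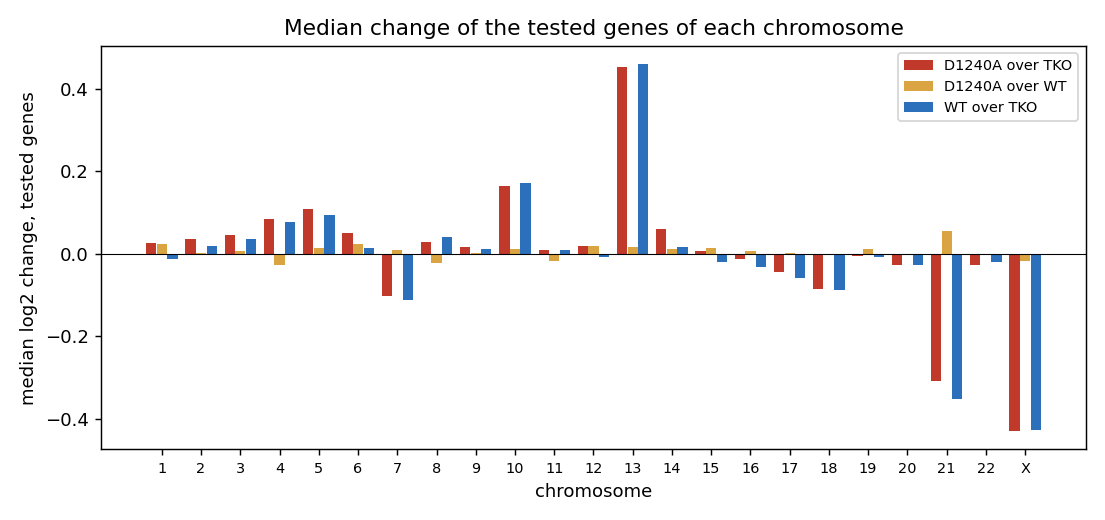
Bars give the median log2 change of the tested genes of each chromosome for D1240A over TKO, D1240A over WT and WT over TKO. Chromosomes 13, 21 and X stand at 0.45, -0.31 and -0.43 for D1240A over TKO, while D1240A over WT stays near 0, at most 0.05 from it on these chromosomes.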

How the data were processed

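Poly(A) RNA from the cells was sequenced and 3 libraries each of D1240A, WT and TKO are described here; 3 F1295A libraries entered the fit only. The authors deposited a single table of FPKM, and per the submitters' processing notes they used Trimmomatic 0.36, FastQC 0.11.4, STAR 2.7.9a, RSEM 1.3.1 and DESeq2 with GRCh38; settings, strand and annotation release are not stated there. Of 60504 features, 56996 (94.2%) matched GENCODE 29, the source of the coordinates.

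From the deposited FPKM, 7089 structural RNA features were left out, libraries were rescaled with trimmed means of their log2 ratios, and genes at 0.5 FPKM or more in at least 3 libraries were kept. limma 3.58.1 (R 4.3.3) fitted log2(FPKM + 0.5) with an intensity trend over 12 libraries in 4 groups, with Benjamini-Hochberg adjustment over 14391 genes and calls at 0.05. The fit was tested on simulated data with 100 changed genes of each kind. Of these, 80 changed 1.5-fold and 97 changed 3-fold in D1240A were called against TKO. The placement was right for 96 genes at WT, 89 short of it and 81 past it. Every simulated library had the same spread for a gene, so a library such as D1240A replicate 2 was not covered. Depth is unknown, so no counting intervals are given.

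Genes named are NSD2, the 10 largest changes over TKO in each direction, 6 per placement and direction, the H3K36 list and the 4 smallest adjusted p of each other list. The first picks needed groups that did not overlap, a mean of 2 FPKM over 12 libraries, an assigned symbol and a call without D1240A replicate 2; others are marked in the text as chosen after their values were seen. Members and lists were chosen with earlier results of these data known. Replicate numbers did not pair the samples. Alternatives covered scaling, pseudocount, filter, margin, library weights, replicate block, neighbourhood medians and left-out libraries. Results for 2 of the genes picked are not reported here.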

Additional observations from a re-analysis of the deposited data

Results flagged for a closer look

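Differences between the D1240A and WT lines in their change from TKO were tested by the D1240A minus WT contrast in limma. By that contrast 952 genes were short of WT but moved from TKO, 819 were short and not called from TKO, 285 were past WT and 55 were opposite to WT. The genes in these groups were described in the report, and all the contrasts share libraries.

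Signal outside the tested genes appeared in D1240A replicate 2, where ribosomal RNA made up 51.4% of the FPKM total and small nuclear RNA summed to 90165 FPKM, above the TKO libraries. Long intergenic RNA, which stayed among the genes analysed, summed to 257696 FPKM there (10.4% of the total). Its part in any result was not tested. Counts over all genes are given without this library, and those of a list where the balance of higher and lower genes turned or a count moved by over 1.5 times.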

How the results depend on the processing

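Of 8104 values recomputed for 353 results on 219 named genes, 7804 kept their direction and side of the threshold, 231 no longer passed it, 60 newly passed it and 9 turned sign. Many of these genes were picked for a call that held without D1240A replicate 2, or for a small adjusted p. Much of this stability was therefore built in by the choice of genes. On the values as deposited, the turned values were D1240A over TKO for LCP1 (-0.022) and HLA-E (-0.00702), and D1240A over WT for MSN (-0.0019), RBBP7 (-0.026), EZH2 (-0.018), IFNAR2 (-0.011) and RMI2 (-0.0011). With neighbourhood medians removed, D1240A over TKO was -0.38 for LCP1 and 0.22 for TSPAN7. The as-deposited scaling left 1589 genes higher, 458 short and moved, 474 short and not called from TKO, 17 opposite and 136 past WT, and the cause of these moves was not tested beyond the shift in the all-gene median. Unplaced genes numbered 347 with a filter at 1 FPKM, 941 and 242 with pseudocounts of 0.1 and 1, 1692 with a narrower margin and 100 with a 2-fold margin; fewer tested genes or the margin's own width enter these. A 2-fold rule left 401 higher and 252 lower genes.

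Leaving out 1 library at a time gave 2932 to 3341 higher and 2559 to 3046 lower genes, 676 to 921 short and moved, 460 to 889 short and not called, 40 to 80 opposite, 158 to 321 past WT, 3995 to 4947 at WT, 469 to 759 unplaced and 308 to 543 apart from both. The replicate block gave 3234 higher and 2955 lower genes, and same-numbered samples correlated at -0.053 to 0.085. Leaving out chromosomes 13, 21 and X, chosen after seeing the data, kept every count within 1.5 times. These chromosomes held only 6.09% of the tested genes, so the counts had little room to move. The shifted windows of chromosomes 5, 7, 8 and 10 stayed in, so this setting says little about regional shifts. Depth is unknown, so its limits could not be given.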
